A study of Mus musculus with 8 samples.

Results

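The genes of cholesterol and fatty acid synthesis were followed across 8 Illumina mouse bead arrays of immortalised mouse embryonic fibroblasts. The set was chosen by function and holds 35 genes: 18 enzymes of the sterol arm, 11 enzymes of the fatty acid arm, and 6 genes that regulate the pathway or carry sterol. Of these, 32 had at least 1 annotated probe, with 46 probes in all, out of 25697 probes and 16593 named genes on the array. All 32 passed the filter on dim probes, so the counts of array results run over 15 sterol enzymes, 11 fatty acid enzymes and 6 regulators. Acat2, Mvk and Fdft1, all of the sterol arm, have no array value here, because the probe annotation used holds no probe for them.

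The arrays came from 4 groups of 2. Heavy polysomal RNA, pooled from fractions with mRNAs on more than 3 ribosomes, and total cytoplasmic RNA were each taken from 1 line whose knocked-in eIF4E, the protein that binds the cap of mRNAs, can no longer be phosphorylated (KI), and from 1 wild-type line (WT). Both lines were derived from embryos at day 14.5, immortalised by passage and grown in DMEM with 10% serum, and the RNA was prepared in 2 independent experiments per line. Each genotype is therefore a single immortalised line, genotype and line cannot be told apart, and the p-values measure the spread between experiments on 1 line. In bulk RNA, fewer cells expressing a gene and less RNA per cell cannot be told apart either.

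Sterols and fatty acids are both built from acetyl-CoA. In the sterol arm acetyl-CoA is turned into mevalonate, then into farnesyl diphosphate, squalene and lanosterol, and lanosterol is trimmed and reduced to cholesterol. In the fatty acid arm acetyl-CoA is carboxylated and condensed into palmitate, which is elongated and desaturated. The SREBP transcription factors, encoded by Srebf1 and Srebf2, are made as precursors in the membrane of the endoplasmic reticulum. When sterol is scarce Scap escorts them to the Golgi, where they are cut and released to the nucleus. When sterol is plentiful the Insig proteins hold Scap back. SREBP sites in promoters usually lie beside sites for other factors, among them NF-Y, which binds CCAAT.

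RefSeq promoters (build GRCm38.p6, 250 bases before to 50 bases after a start) were matched by symbol for 28 of the 35 genes. A gene with several starts counts as holding a motif if any of them does. By start, CCAAT occurred in 14 of 18 of the sterol arm (77.8%), against 37.8% of the starts of tested genes. CCAAT, read on both strands and so also as ATTGG, occurred in 14 of 15 sterol enzymes (93.3%; Acat2 and Mvk are among these 15, so 13 have a probe), 5 of 8 fatty acid enzymes (62.5%) and 4 of 5 regulators (80.0%). The share was 43.6% of the tested genes that had a promoter and 41.1% of all genes in the table. The SREBP element TCACNCCAC, also read on both strands, occurred in Hmgcs1 alone, against 1.4% of all genes. The E-box CACGTG, whose reverse complement is itself, occurred in 6 of 28 (21.4%), against 12.0% of the tested genes and 8.1% of all genes. A match is a string of letters, not a shown binding site. Nor does a missing match show that a site is absent, since other spellings of these sites were not sought. The 180 bases before the start are printed below for 6 genes picked in view of the array results. Matches to the 3 motifs are in capitals, and no match overlaps another there. Hmgcs1, Msmo1 and Elovl5 rose in polysomal RNA and hold CCAAT, and Elovl6 rose and holds none. Srebf2 fell and holds 1 CCAAT, and Fads2 did not pass and holds none. Among genes not printed, Pmvk fell in WT and Dhcr7 fell in KI, and both hold CCAAT, though Dhcr7 not at every start. A link between motif and polysomal signal was not tested.
Hmgcs1, chr13:119690171-119690350, plus strand: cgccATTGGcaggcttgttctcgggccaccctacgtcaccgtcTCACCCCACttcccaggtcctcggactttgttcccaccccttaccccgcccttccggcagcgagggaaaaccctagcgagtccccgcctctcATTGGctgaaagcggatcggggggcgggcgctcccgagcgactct
Msmo1, chr8:64733579-64733758, minus strand: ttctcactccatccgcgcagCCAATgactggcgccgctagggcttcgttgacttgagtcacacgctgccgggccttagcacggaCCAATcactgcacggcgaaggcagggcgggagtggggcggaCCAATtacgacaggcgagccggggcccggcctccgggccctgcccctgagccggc
Elovl5, chr9:77917185-77917364, plus strand: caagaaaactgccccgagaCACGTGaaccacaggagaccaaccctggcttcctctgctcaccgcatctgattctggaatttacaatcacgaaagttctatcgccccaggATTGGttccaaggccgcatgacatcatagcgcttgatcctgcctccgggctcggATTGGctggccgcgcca
Elovl6, chr3:129532206-129532385, plus strand: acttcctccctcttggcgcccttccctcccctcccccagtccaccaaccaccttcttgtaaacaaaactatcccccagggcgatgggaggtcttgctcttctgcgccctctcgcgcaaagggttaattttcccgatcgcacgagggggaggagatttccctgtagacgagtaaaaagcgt
Srebf2, chr15:82147089-82147268, plus strand: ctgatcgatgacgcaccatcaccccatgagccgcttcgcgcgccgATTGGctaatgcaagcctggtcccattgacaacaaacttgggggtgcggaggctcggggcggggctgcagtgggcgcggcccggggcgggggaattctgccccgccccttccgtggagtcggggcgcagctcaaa
Fads2, chr19:10101504-10101683, minus strand: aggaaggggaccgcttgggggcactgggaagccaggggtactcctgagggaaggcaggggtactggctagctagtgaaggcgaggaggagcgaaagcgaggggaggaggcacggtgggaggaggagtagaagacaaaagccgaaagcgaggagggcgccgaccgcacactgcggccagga
Hmgcs1 thus shows 1 SREBP element and 2 CCAAT boxes in these bases, Msmo1 shows 3 CCAAT boxes, and Elovl5 shows 2 with an E-box. The arrays measured RNA, not transcription from these starts.

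Signals are given as deposited, taken as log2, and the value of one probe is not set against that of another. The array medians over all probes lay between 7.69 and 7.73, near the bottom of the range, and a value less than 0.25 above its array's median is called at the bottom here. Differences that involve such values are understated. As a check of the labels, 9 of 10 fibroblast markers were measured and 0 of them lay at the bottom on all 8 arrays. Of the 9, 6 were above it on every array, Col1a1, Vim and Thy1 among them. The other 3, Col3a1, Pdgfra and Pdgfrb, were above it on some arrays only. The brightest Dcn probe read 11.91 and 8.09 on the WT total arrays, far apart, against 8.68 and 8.56 in KI total RNA. Of 8 measured adipocyte markers, 6 lay at the bottom on all arrays, including the defining Adipoq, Fabp4 and Plin1, and 0 were above it on all arrays. The bottom also held 3 of 4 epithelial, 4 of 4 endothelial and 3 of 3 macrophage markers on all 8 arrays. The summed signal of the fibroblast markers was 95.68 and 97.33 in KI polysomal RNA, against 94.41 and 94.96 in WT polysomal RNA, and 94.49 and 93.30 in KI total RNA, against 92.33 and 91.64 in WT total RNA. The sum joins fibroblast markers that differed in opposite directions between the lines. In polysomal RNA the KI minus WT difference was 1.47 for Col1a1, 1.48 for Col1a2 and 1.65 for Thy1, against -1.37 for Pdgfra and -3.18 for Dcn, genes singled out after their values were seen. Of the 9 markers 6 differed by 1 or more, 6 had an unadjusted p under 0.05, and 0 passed in limma. The adipocyte markers summed to between 61.55 and 62.03 on the 8 arrays. The part of these markers in the results was not tested.

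**Figure D1:**
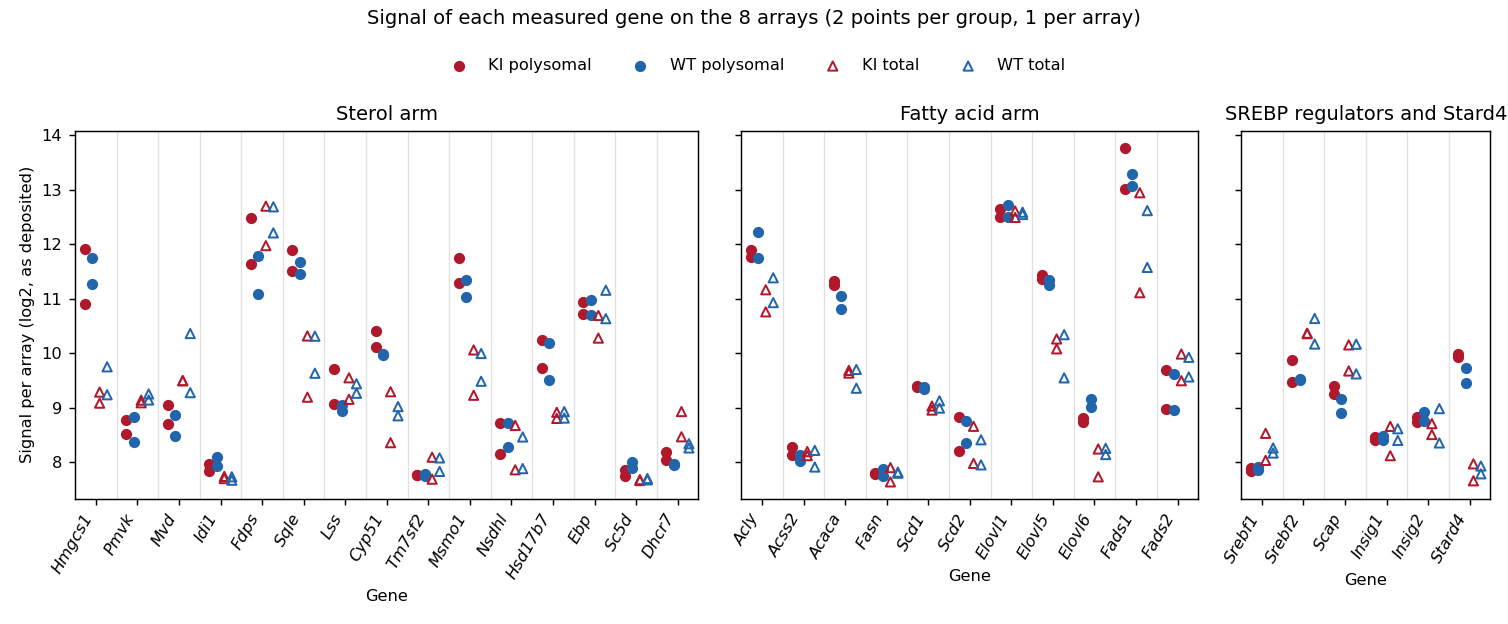
Signal of each of the 32 measured genes on each array (log2, as deposited), ordered along the pathway within each arm. Each group has 2 points, 1 per array: filled circles are polysomal RNA and open triangles total RNA, KI in red and WT in blue. Hmgcs1, Sqle, Msmo1, Acaca, Elovl5 and Stard4 have all their filled points above their open ones, Srebf2 and Scap all below, and Fasn has all 8 points between 7.64 and 7.90.

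The comparison of heavy polysomal with total RNA asks which of these mRNAs were over- or under-represented on polysomes of several ribosomes, relative to the other mRNAs on the array. Sterol enzymes were split. Hmgcs1, Sqle, Cyp51, Msmo1 and Hsd17b7 rose in polysomal RNA of both lines, by 0.98 to 2.22, while Pmvk fell in WT and Dhcr7 fell in KI. In the fatty acid arm Acly, Acaca, Scd1, Elovl5 and Elovl6 rose in both lines, by 0.30 to 1.64, and 0 fell on their brightest probes. Among the regulators Stard4 rose in both lines, Srebf2 fell in both and Scap fell in WT. In all, 13 of 32 genes passed in KI (11 higher and 2 lower) and 15 of 32 in WT (12 higher and 3 lower), at an adjusted p below 0.05 in limma over all 8832 tested genes.

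These counts stood beside a large background. In KI 40.6% of the 32 genes passed, against 37.1% of all tested genes, with 34.4% higher against 21.5% and 6.25% lower against 15.6%. In WT 46.9% passed, against 37.9% of all tested genes, with 37.5% higher against 21.0% and 9.38% lower against 16.9%. The overall shares lay near those of all genes, and no test of the set was made. The arrays of the 2 types of RNA did not overlap for 22 of 32 genes in KI (68.8%, against 72.2% of all genes) and for 23 of 32 in WT (71.9%, against 73.5%). In WT the count of the set was lower whichever single array was left out, and in KI it was lower for some arrays and not for all. Over all tested genes 3278 passed in KI and 3349 in WT with every array. Those counts fell when some arrays were left out and rose when others were. Fits with fewer calls follow. In KI 4 genes passed without KI polysomal replicate 1 (1994 of all 8832 genes), 5 without KI polysomal replicate 2 (1414 of all genes) and 8 without KI total replicate 2 (2195). In WT 3 passed without WT polysomal replicate 1 (1708 of all genes), 4 without WT polysomal replicate 2 (1407), 4 without WT total replicate 2 (2031), and 9 without either KI polysomal array (2822), which enters through the shared spread. With no filter on dim probes 9 passed in each line, against 16.7% of all genes in KI and 16.3% in WT. The calls of Hsd17b7, Dhcr7, Acly and Srebf2 in KI and of Pmvk, Sqle, Cyp51, Msmo1, Hsd17b7, Acly and Scap in WT were lost there, and Sc5d passed in WT. Hmgcs1, Acaca and Stard4 passed in KI, and Acaca and Stard4 in WT, whichever single array was left out.

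The sterol arm opens with the mevalonate steps. Hmgcs1 encodes the synthase that makes HMG-CoA, the precursor of mevalonate, and lies on chromosome 13 from 119690351 to 119708260 (GRCm38.p6). It read 11.91 and 10.91 in KI polysomal RNA, against 9.28 and 9.08 in KI total RNA. In WT it read 11.74 and 11.27 in polysomal RNA, against 9.24 and 9.75 in total RNA. Both polysomal arrays lay above both total arrays in each line, by more than the gap between replicates. The difference was 2.22 ± 0.37 in KI (SE, n = 2 arrays per group, here and below; limma adjusted p = 0.00772) and 2.02 ± 0.37 in WT (limma adjusted p = 0.0102).

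Pmvk and Mvd, further along the mevalonate steps, had lower polysomal than total signal. Pmvk, phosphomevalonate kinase, read 8.78 and 8.52 in KI polysomal RNA, against 9.09 and 9.14 in KI total RNA, and 8.83 and 8.37 in WT polysomal RNA, against 9.25 and 9.14 in WT total RNA. The groups did not overlap in either line; the difference was -0.47 ± 0.17 in KI (limma adjusted p = 0.0840) and -0.59 ± 0.17 in WT (limma adjusted p = 0.0420), so the call stood in WT only, and the difference between the lines did not pass (0.13, 95% interval -0.48 to 0.73). Mvd, the decarboxylase that makes isopentenyl diphosphate, read 9.04 and 8.70 in KI polysomal RNA, against 9.49 and 9.50 in KI total RNA, and 8.86 and 8.48 in WT polysomal RNA, against 9.28 and 10.36 in WT total RNA. Its total RNA was higher throughout, but the WT total arrays lay 1.09 apart, and neither -0.62 ± 0.36 in KI (limma adjusted p = 0.229) nor -1.15 ± 0.36 in WT (limma adjusted p = 0.0513) passed. Mvd did pass in WT with the culture as a random block (limma adjusted p = 0.0400), with a stricter filter on dim probes (0.0319) and with an intensity trend and robust fit (0.0202).

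Idi1, the isomerase of isopentenyl diphosphate, was at the bottom on 7 of 8 arrays. It read 7.96 and 7.85 in KI polysomal RNA, against 7.74 and 7.70 in KI total RNA, and 8.09 and 7.93 in WT polysomal RNA, against 7.67 and 7.73 in WT total RNA. The WT difference of 0.31 ± 0.09 passed (limma adjusted p = 0.0475) and the KI difference of 0.19 ± 0.09 did not (limma adjusted p = 0.179); the WT call was lost with the culture as a block (limma adjusted p = 0.0843), under quantile normalization (0.0751) and with arrays centred on the tested genes (0.0569). Fdps, farnesyl diphosphate synthase, read 12.47 and 11.63 in KI polysomal RNA, against 12.70 and 11.97 in KI total RNA, and 11.78 and 11.08 in WT polysomal RNA, against 12.21 and 12.68 in WT total RNA. The KI groups overlapped and the WT groups did not, with differences of -0.28 ± 0.42 (limma adjusted p = 0.649) and -1.01 ± 0.42 (limma adjusted p = 0.107), of which 0 passed.

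From squalene on, 3 oxygenases rose together with a reductase. Sqle, squalene epoxidase, read 11.89 and 11.50 in KI polysomal RNA, against 10.31 and 9.19 in KI total RNA, and 11.46 and 11.67 in WT polysomal RNA, against 10.31 and 9.63 in WT total RNA. Every polysomal array was above every total array, and total replicate 2 was the lower array in each line. The difference was 1.94 ± 0.41 in KI (limma adjusted p = 0.0160) and 1.59 ± 0.41 in WT (limma adjusted p = 0.0291). A second Sqle probe, above the bottom on all 8 arrays, showed 1.21 in KI (limma adjusted p = 0.0576) and 1.18 in WT (limma adjusted p = 0.0611, every probe fitted) and passed in neither line. Cyp51, lanosterol demethylase, read 10.41 and 10.11 in KI polysomal RNA, against 9.29 and 8.36 in KI total RNA, and 9.96 and 9.98 in WT polysomal RNA, against 9.02 and 8.85 in WT total RNA. Again no array of one type of RNA overlapped the other. Cyp51 rose by 1.44 ± 0.30 in KI (limma adjusted p = 0.0154) and by 1.04 ± 0.30 in WT (limma adjusted p = 0.0409; 0.0548 under quantile normalization).

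Msmo1, the methylsterol monooxygenase that starts removal of the methyl groups on the sterol ring, read 11.75 and 11.28 in KI polysomal RNA, against 10.06 and 9.23 in KI total RNA, and 11.34 and 11.04 in WT polysomal RNA, against 9.99 and 9.48 in WT total RNA. Its polysomal arrays were all above its total arrays. Msmo1 rose by 1.87 ± 0.34 in KI (limma adjusted p = 0.00984) and by 1.45 ± 0.34 in WT (limma adjusted p = 0.0211). Hsd17b7, the ketosteroid reductase of the same demethylation, read 10.24 and 9.73 in KI polysomal RNA, against 8.80 and 8.92 in KI total RNA, and 10.19 and 9.51 in WT polysomal RNA, against 8.81 and 8.93 in WT total RNA. Here the polysomal replicates were further apart than the total ones, with replicate 1 the higher in both lines. Hsd17b7 rose by 1.13 ± 0.26 in KI (limma adjusted p = 0.0219) and by 0.98 ± 0.26 in WT (limma adjusted p = 0.0329).

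Nsdhl, the dehydrogenase that acts between those enzymes, did not pass: its 4 probes gave differences of 0.16 to 0.36 in KI and 0.19 to 0.36 in WT. Of the remaining sterol enzymes, Dhcr7, which makes cholesterol from dehydrocholesterol, went the other way. It read 8.03 and 8.18 in KI polysomal RNA, against 8.47 and 8.93 in KI total RNA, and 7.96 and 7.94 in WT polysomal RNA, against 8.34 and 8.26 in WT total RNA. The groups did not overlap in either line, and the difference of -0.59 ± 0.16 in KI passed (limma adjusted p = 0.0346) while that of -0.34 ± 0.16 in WT did not (limma adjusted p = 0.145); both WT polysomal arrays were at the bottom. Lss, lanosterol synthase, had differences of 0.04 ± 0.24 in KI and -0.36 ± 0.24 in WT, and Ebp, a sterol isomerase, 0.35 ± 0.23 in KI and -0.06 ± 0.23 in WT, and neither gene passed. Tm7sf2, a sterol reductase, and Sc5d, a sterol desaturase, were at the bottom on 6 and 7 of 8 arrays and did not pass; Sc5d in WT came near, at 0.26 ± 0.08 (limma adjusted p = 0.0533), and passed in several other settings, among them the random culture block (0.0361).

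In the fatty acid arm Acaca, acetyl-CoA carboxylase, makes malonyl-CoA, the building block of the chain. The gene lies on chromosome 11 from 84129635 to 84401651. It read 11.26 and 11.33 in KI polysomal RNA, against 9.68 and 9.63 in KI total RNA, and 10.81 and 11.05 in WT polysomal RNA, against 9.70 and 9.36 in WT total RNA. The types of RNA lay more than 1 unit apart on every pair of arrays. Acaca rose by 1.64 ± 0.14 in KI (limma adjusted p = 0.00166) and by 1.40 ± 0.14 in WT (limma adjusted p = 0.00224).

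Acly, the citrate lyase that supplies cytosolic acetyl-CoA, read 11.89 and 11.77 in KI polysomal RNA, against 11.16 and 10.76 in KI total RNA, and 11.75 and 12.22 in WT polysomal RNA, against 11.38 and 10.93 in WT total RNA. It rose by 0.87 ± 0.24 in KI (limma adjusted p = 0.0353) and by 0.83 ± 0.24 in WT (limma adjusted p = 0.0393), without overlap between the groups. With the culture as a block neither call stood (limma adjusted p = 0.0529 in KI and 0.0579 in WT). Acss2, the synthetase that makes acetyl-CoA from acetate, did not pass, with differences of 0.05 ± 0.13 in KI and 0.02 ± 0.13 in WT. Fasn, the synthase that builds palmitate, was at the bottom on all 8 arrays (7.64 to 7.90), so its probe could show no difference; other genes of the arm were clearly above the bottom in the same cells.

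The elongases separated by member. Elovl5, which extends polyunsaturated fatty acids, read 11.36 and 11.44 in KI polysomal RNA, against 10.26 and 10.08 in KI total RNA, and 11.25 and 11.34 in WT polysomal RNA, against 10.34 and 9.55 in WT total RNA. Its polysomal replicates lay close together in each line, and the total ones further apart in WT. Elovl5 rose by 1.23 ± 0.25 in KI (limma adjusted p = 0.0144) and by 1.35 ± 0.25 in WT (limma adjusted p = 0.0108). Elovl6, which extends palmitate, read 8.74 and 8.81 in KI polysomal RNA, against 7.73 and 8.24 in KI total RNA, and 9.02 and 9.15 in WT polysomal RNA, against 8.25 and 8.14 in WT total RNA. Elovl6 rose by 0.79 ± 0.17 in KI (limma adjusted p = 0.0178) and by 0.89 ± 0.17 in WT (limma adjusted p = 0.0126), though 1 KI total array was at the bottom.

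Elovl1, which makes saturated and monounsaturated fatty acids of very long chain, gave different answers by probe. Its brightest probe read 12.65 and 12.50 in KI polysomal RNA, against 12.49 and 12.61 in KI total RNA, and 12.72 and 12.50 in WT polysomal RNA, against 12.59 and 12.54 in WT total RNA. That probe showed overlapping groups, with differences of 0.03 ± 0.11 in KI (limma adjusted p = 0.886) and 0.04 ± 0.11 in WT (limma adjusted p = 0.824). The 3 other probes, all above the bottom on every array, were lower in polysomal RNA, by -0.52, -0.52 and -0.45 in KI and by -0.55, -0.31 and -0.53 in WT. When every probe was fitted as its own row, 2 of these 3 passed in both lines (limma adjusted p = 0.0264 and 0.00925 in KI, 0.0208 and 0.0426 in WT). With the probes of a gene averaged, Elovl1 fell in KI, by 0.36 (limma adjusted p = 0.0438), which reverses the sign of the brightest probe. The direction of Elovl1 is therefore not settled.

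The desaturases formed 2 pairs that lie together on chromosome 19. Scd1, the stearoyl-CoA desaturase, read 9.39 and 9.38 in KI polysomal RNA, against 8.95 and 9.03 in KI total RNA, and 9.34 and 9.37 in WT polysomal RNA, against 9.13 and 8.99 in WT total RNA. The difference was small next to those of Acaca or Elovl5, but the replicates were close: Scd1 rose by 0.39 ± 0.08 in KI (limma adjusted p = 0.0161) and by 0.30 ± 0.08 in WT (limma adjusted p = 0.0363; 0.0780 with the culture as a block and 0.0906 with a stricter filter). With an intensity trend and robust fit Scd1 passed in neither line (limma adjusted p = 0.116 in KI and 0.219 in WT). Its paralogue Scd2 read 8.83 and 8.20 in KI polysomal RNA, against 8.66 and 7.98 in KI total RNA, and 8.75 and 8.34 in WT polysomal RNA, against 8.41 and 7.95 in WT total RNA. Replicate 1 was the higher array of Scd2 in all 4 groups, by 0.41 to 0.68, and neither 0.20 ± 0.33 in KI (limma adjusted p = 0.696) nor 0.37 ± 0.33 in WT (limma adjusted p = 0.442) passed. Within each WT culture polysomal RNA was the higher, by 0.34 and 0.39, and with the culture as a block Scd2 passed in WT (limma adjusted p = 0.0395).

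Fads1 and Fads2, desaturases of polyunsaturated fatty acids, had opposite signs. Fads1 read 13.77 and 13.00 in KI polysomal RNA, against 12.94 and 11.11 in KI total RNA, and 13.29 and 13.06 in WT polysomal RNA, against 12.62 and 11.57 in WT total RNA. Every polysomal array was above every total array, but the total replicates lay 1.83 apart in KI and 1.04 apart in WT, and neither 1.36 ± 0.67 in KI (limma adjusted p = 0.165) nor 1.08 ± 0.67 in WT (limma adjusted p = 0.254) passed. With the culture as a block Fads1 passed in KI (limma adjusted p = 0.0361). Fads2 read 9.69 and 8.98 in KI polysomal RNA, against 9.98 and 9.49 in KI total RNA, and 9.61 and 8.97 in WT polysomal RNA, against 9.92 and 9.56 in WT total RNA. The groups of Fads2 overlapped in both lines, and neither -0.40 ± 0.34 in KI (limma adjusted p = 0.410) nor -0.45 ± 0.34 in WT (limma adjusted p = 0.348) passed. Within each culture its polysomal RNA was the lower, by -0.29 and -0.51 in KI and by -0.31 and -0.60 in WT, and with the culture as a block Fads2 passed in WT (limma adjusted p = 0.0490).

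Among the regulators, Stard4, a cytosolic carrier of cholesterol, read 9.98 and 9.93 in KI polysomal RNA, against 7.66 and 7.97 in KI total RNA, and 9.46 and 9.72 in WT polysomal RNA, against 7.79 and 7.93 in WT total RNA. Its total RNA was at the bottom on 3 of 4 arrays, so the differences are understated. Stard4 rose by 2.14 ± 0.14 in KI (limma adjusted p = 0.00101) and by 1.73 ± 0.14 in WT (limma adjusted p = 0.00164).

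Of the SREBP precursor genes and their escort Scap, only Srebf2 passed in both lines, as lower in polysomal RNA. Srebf2, the isoform tied chiefly to sterol synthesis, read 9.88 and 9.48 in KI polysomal RNA, against 10.37 and 10.36 in KI total RNA, and 9.52 and 9.50 in WT polysomal RNA, against 10.17 and 10.64 in WT total RNA. The groups did not overlap, and Srebf2 fell by 0.68 ± 0.19 in KI (limma adjusted p = 0.0393) and by 0.89 ± 0.19 in WT (limma adjusted p = 0.0174). The KI call was lost with no filter on dim probes (limma adjusted p = 0.0843), with an intensity trend and robust fit (0.0526) and with the replicate number as a block (0.0505), and stood in 3 of 8 fits with 1 array left out; the WT call stood in 5 of those 8. Scap read 9.25 and 9.40 in KI polysomal RNA, against 9.67 and 10.15 in KI total RNA, and 8.90 and 9.16 in WT polysomal RNA, against 9.62 and 10.16 in WT total RNA. Polysomal arrays of Scap were again all below total arrays, with a fall of 0.86 ± 0.24 in WT (limma adjusted p = 0.0362) and -0.59 ± 0.24 in KI, which did not pass (limma adjusted p = 0.108; 0.0334 with the culture as a block). Srebf1, the isoform tied chiefly to fatty acid synthesis, read 7.83 and 7.89 in KI polysomal RNA, against 8.03 and 8.53 in KI total RNA, and 7.86 and 7.92 in WT polysomal RNA, against 8.26 and 8.17 in WT total RNA. All 4 polysomal arrays of Srebf1 were at the bottom, and neither -0.42 ± 0.17 in KI (limma adjusted p = 0.0966) nor -0.33 ± 0.17 in WT (limma adjusted p = 0.176) passed. Srebf1 did pass in KI under quantile normalization (limma adjusted p = 0.0396) and with an intensity trend and robust fit (0.0487).

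Insig1 and Insig2, which retain Scap in the endoplasmic reticulum, did not pass on their brightest probes. Insig1 read 8.47 and 8.40 in KI polysomal RNA, against 8.66 and 8.12 in KI total RNA, and 8.40 and 8.49 in WT polysomal RNA, against 8.61 and 8.40 in WT total RNA, with differences of 0.05 ± 0.19 in KI and -0.06 ± 0.19 in WT. A second Insig1 probe was lower in polysomal RNA, by -0.36 in KI (limma adjusted p = 0.0791) and -0.46 in WT (limma adjusted p = 0.0406, every probe fitted). Another Insig1 probe showed -0.21 in KI and -0.25 in WT without passing, and with the probes of the gene averaged Insig1 fell in WT, by 0.26 (limma adjusted p = 0.0366). Insig2 read 8.82 and 8.74 in KI polysomal RNA, against 8.71 and 8.51 in KI total RNA, and 8.76 and 8.92 in WT polysomal RNA, against 8.98 and 8.35 in WT total RNA, with differences of 0.17 ± 0.21 in each line. A second Insig2 probe showed 0.56 in KI (limma adjusted p = 0.0649) and 0.51 in WT (limma adjusted p = 0.0805), again without passing. The calls of Insig1 thus depend on the probe taken.

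**Figure D2:**
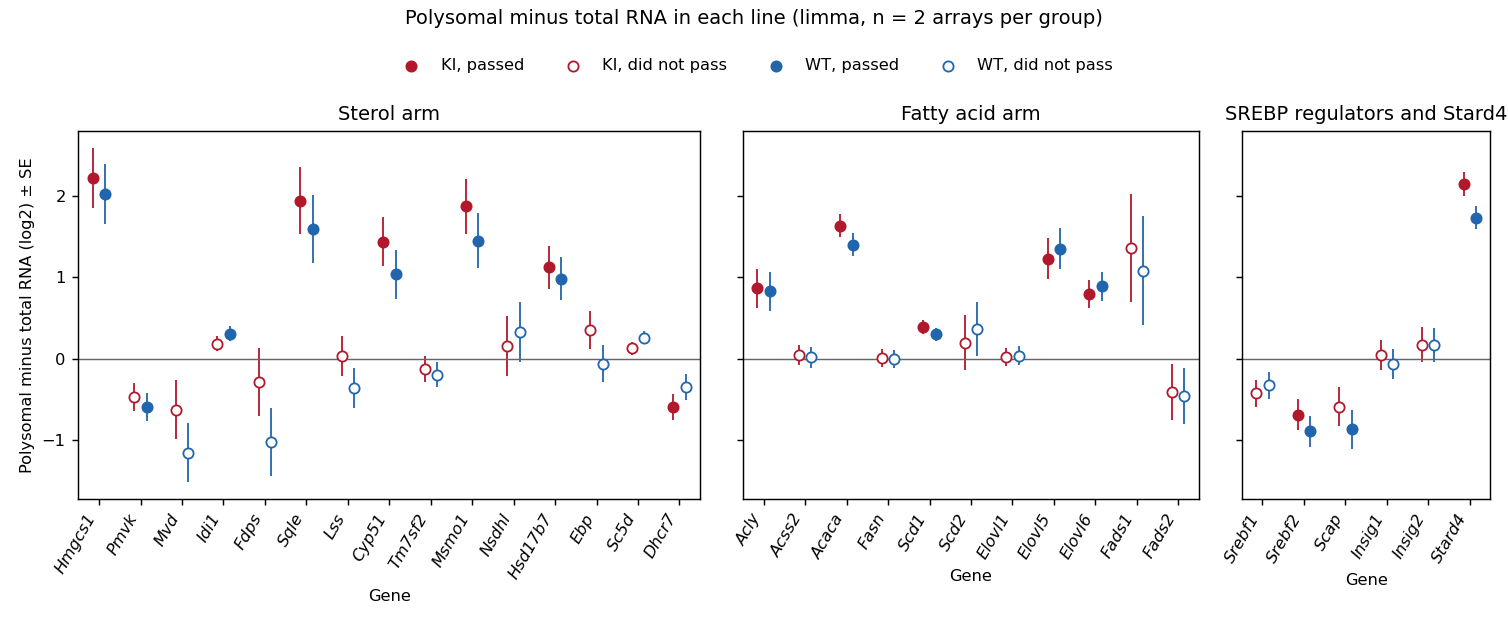
Polysomal minus total RNA for the 32 genes (log2 difference ± limma SE, n = 2 arrays per group), KI in red left of WT in blue. Filled points passed at an adjusted p below 0.05; Hmgcs1 stands at 2.22 in KI and 2.02 in WT, and Srebf2 at -0.68 in KI and -0.89 in WT.

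**Figure D3:**
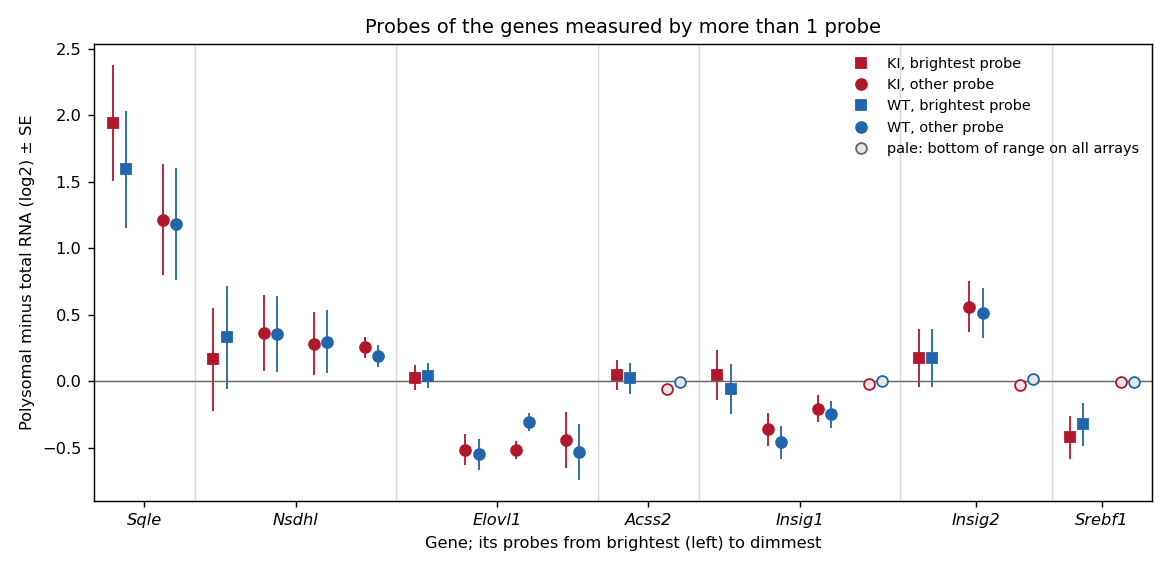
Polysomal minus total RNA (log2 difference ± limma SE) for the 7 genes with more than 1 probe. The SEs come from a fit of every named probe, with no filter on dim probes. The brightest probe of each gene is at the left as squares, other probes as circles, KI in red and WT in blue. Pale circles are probes at the bottom of the range on all 8 arrays; the 3 dimmer Elovl1 probes lie between -0.31 and -0.55 while the brightest lies at 0.03 and 0.04.

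Taken by arm, the median polysomal minus total difference was 0.16 over the 15 sterol enzymes and 0.39 over the 11 fatty acid enzymes in KI, against 0.02 over all tested genes. In WT the medians were 0.26 for the sterol arm and 0.37 for the fatty acid arm, against -0.01 over all tested genes. The sterol median in WT is the value of Sc5d, which was at the bottom on 7 of 8 arrays. The sterol arm held 5 higher and 1 lower call in KI and 6 higher and 1 lower in WT, and the fatty acid arm 5 higher and 0 lower in each line. Over all tested genes 21.5% were called higher and 15.6% lower in KI, and 21.0% and 16.9% in WT. These calls rest on the brightest probe of each gene, and 2 other Elovl1 probes were called lower in both lines. Differences of 1 or more in size were found for 5 of 15 sterol enzymes in KI and 6 of 15 in WT, and for 3 of 11 fatty acid enzymes in each line, against 18.2% and 19.3% of all tested genes. The sterol arm spanned -0.62 to 2.22 in KI and -1.15 to 2.02 in WT, and the fatty acid arm -0.40 to 1.64 in KI and -0.45 to 1.40 in WT. The arms were described and not tested against each other, since genes are not replicates.

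The sterol arm was also described on either side of squalene, in a split chosen after the values were seen. The 5 measured enzymes up to farnesyl diphosphate had a median of -0.28 in KI and -0.59 in WT, with Hmgcs1 and Idi1 positive and the other 3 negative in each line. The 10 enzymes from squalene on had a median of 0.26 in KI, with 8 positive and 2 negative, and 0.30 in WT, with 6 positive and 4 negative. Each side thus held genes of both signs. The arm medians moved with the genes kept. A stricter filter, which keeps probes above the 60th percentile, dropped the dim genes Idi1, Sc5d and Fasn. The sterol median in WT was then -0.06, and the fatty acid medians were 0.59 in KI and 0.60 in WT.

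The KI and WT lines share no arrays in these comparisons. Of the 32 genes, 12 passed in both lines, 11 of them higher and 1 lower (Srebf2), 1 passed in KI alone (Dhcr7), 3 in WT alone (Pmvk, Idi1 and Scap) and 16 in neither. Signs matched for 28 of 32 genes (87.5%), against 86.4% of all tested genes. Across the 32 genes, which are not independent replicates and share the arrays of a line, the differences of the lines correlated at 0.964 (Pearson) and 0.955 (Spearman), against 0.947 and 0.931 across all tested genes.

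**Figure D4:**
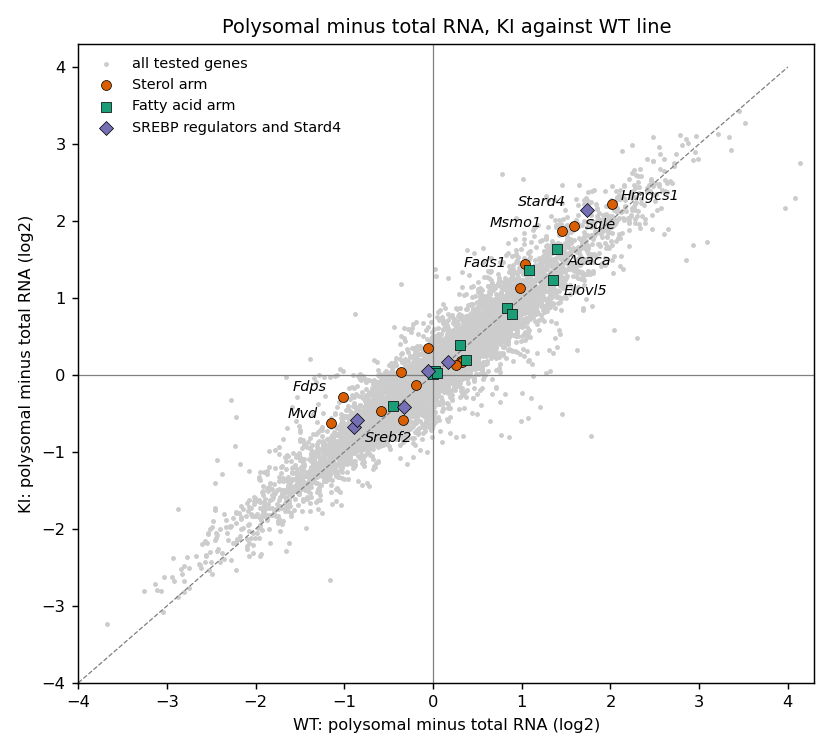
Polysomal minus total RNA in KI (vertical axis, log2 difference) against WT (horizontal axis, log2 difference) for all 8832 tested genes in grey and the 32 genes in colour, with the line of equality dashed. Hmgcs1, Sqle, Msmo1 and Stard4 sit at the upper right, and Srebf2 at the lower left. Fdps lies furthest from the line of the 32, at -0.28 in KI and -1.01 in WT.

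Genes of neighbouring lists were measured beside them. Of 9 tested sterol genes that are not in the set, 3 rose and 0 fell in KI, and 2 rose and 2 fell in WT. Lbr, a lamin receptor that is also a sterol reductase, rose by 1.81 ± 0.11 in KI (limma adjusted p = 0.000844) and by 1.80 ± 0.11 in WT (limma adjusted p = 0.000706). Cyb5b, a cytochrome of the outer mitochondrial membrane, rose by 2.21 ± 0.36 in KI (limma adjusted p = 0.00764) and by 1.63 ± 0.36 in WT (limma adjusted p = 0.0187), and Erg28, whose counterpart in yeast is a scaffold for sterol demethylation, fell by 1.46 ± 0.33 in WT (limma adjusted p = 0.0194). Mbtps1, the Golgi protease that makes the opening cut in SREBP precursors, rose by 0.58 ± 0.17 in KI (limma adjusted p = 0.0441). Of 18 other genes of fatty acid and lipid synthesis, 7 rose and 3 fell in KI, and 6 rose and 3 fell in WT. The acyl-CoA synthetase gene Acsl3 rose by 1.11 ± 0.10 in KI and by 1.02 ± 0.10 in WT (limma adjusted p = 0.00179 and 0.00216). Me1, the malic enzyme that supplies NADPH, rose by 1.13 ± 0.24 in KI and by 1.32 ± 0.24 in WT (limma adjusted p = 0.0161 and 0.0101), while Hacd1, a dehydratase of fatty acid elongation, fell by 1.01 ± 0.15 in KI and by 1.58 ± 0.15 in WT (limma adjusted p = 0.00600 and 0.00202).

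Genes of fatty acid oxidation were split as well. Of 14 tested genes of fatty acid oxidation, 4 rose and 1 fell in KI, and 6 rose and 2 fell in WT. Etfa, an electron carrier subunit, rose by 2.39 ± 0.25 in KI (limma adjusted p = 0.00234) and by 2.44 ± 0.25 in WT (limma adjusted p = 0.00217). Acadm, an acyl-CoA dehydrogenase, rose by 1.75 ± 0.18 in KI and by 1.71 ± 0.18 in WT (limma adjusted p = 0.00232 and 0.00233). Calls of higher polysomal than total signal thus fell on some genes of synthesis and some of oxidation, and on 21.5% of all tested genes in KI and 21.0% in WT.

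KI against WT in polysomal RNA asks which of these mRNAs differed between the lines among those on heavy polysomes. Of the 32 genes 0 passed in limma, as against 0.0566% of all tested genes, and 2 had an unadjusted p under 0.05 (11.5% of all tested genes did). These were Stard4 and Acaca. Stard4 read 9.98 and 9.93 in KI polysomal RNA, against 9.46 and 9.72 in WT polysomal RNA, a difference of 0.37 ± 0.14 (95% interval 0.01 to 0.72; limma adjusted p = 0.421). Acaca read 11.26 and 11.33 in KI polysomal RNA, against 10.81 and 11.05 in WT polysomal RNA, a difference of 0.36 ± 0.14 (95% interval 0.01 to 0.72; limma adjusted p = 0.421). Both genes were higher in both KI arrays than in either WT array, without passing.

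Other genes with a smaller p than most of their arm in polysomal RNA were Fdps at 0.62 ± 0.42 (95% interval -0.41 to 1.65), Lss at 0.39 ± 0.24 (-0.21 to 0.99), Sc5d at -0.15 ± 0.08 (-0.35 to 0.06), Elovl6 at -0.31 ± 0.17 (-0.74 to 0.12), Acss2 at 0.12 ± 0.13 (-0.19 to 0.43) and Scap at 0.30 ± 0.24 (-0.30 to 0.89). Each interval contains 0. Within the paralogue sets, the KI minus WT differences were 0.03 for Scd1 and -0.03 for Scd2, 0.21 for Fads1 and 0.05 for Fads2, -0.01 for Insig1 and -0.06 for Insig2, -0.03 for Srebf1 and 0.17 for Srebf2, and -0.03 for Elovl1 and 0.10 for Elovl5. The medians were 0.13 for the sterol arm and 0.03 for the fatty acid arm, against -0.01 over all tested genes. Groups did not overlap for 11 of 32 genes (34.4%), against 52.5% of all tested genes.

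In total RNA 0 of the 32 genes passed between KI and WT in limma, against 0.113% of all tested genes, and 1 had an unadjusted p under 0.05 (9.07% of all tested genes did). That gene was Dhcr7, which read 8.47 and 8.93 in KI total RNA, against 8.34 and 8.26 in WT total RNA, a difference of 0.40 ± 0.16 (95% interval 0.001 to 0.794; limma adjusted p = 0.550). Both KI arrays were above both WT arrays, by 0.13 at the nearest. Ebp read 10.28 and 10.69 in KI total RNA, against 11.15 and 10.63 in WT total RNA, a difference of -0.41 ± 0.23 (-0.98 to 0.16) with overlapping groups. The next by p were Mvd at -0.32 ± 0.36 (-1.21 to 0.56) in the sterol arm, Elovl6 at -0.21 ± 0.17 (-0.64 to 0.22), Elovl5 at 0.23 ± 0.25 (-0.39 to 0.85) and Acaca at 0.13 ± 0.14 (-0.23 to 0.49) in the fatty acid arm, and Insig1 at -0.12 ± 0.19 (-0.58 to 0.34) among the regulators.

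Within the paralogue sets in total RNA, the KI minus WT differences were -0.07 for Scd1 and 0.14 for Scd2, -0.07 for Fads1 and -0.01 for Fads2, 0.07 for Srebf1 and -0.04 for Srebf2, -0.06 for Insig2, -0.02 for Elovl1, and -0.04 for Stard4 beside them. Of the 15 sterol enzymes 12 had a negative difference, as did 5317 of all 8832 tested genes. The sterol median was -0.08, against -0.04 over all tested genes. The fatty acid median was -0.02. Groups did not overlap for 2 of 32 genes (6.25%), against 31.9% of all tested genes.

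**Figure D5:**
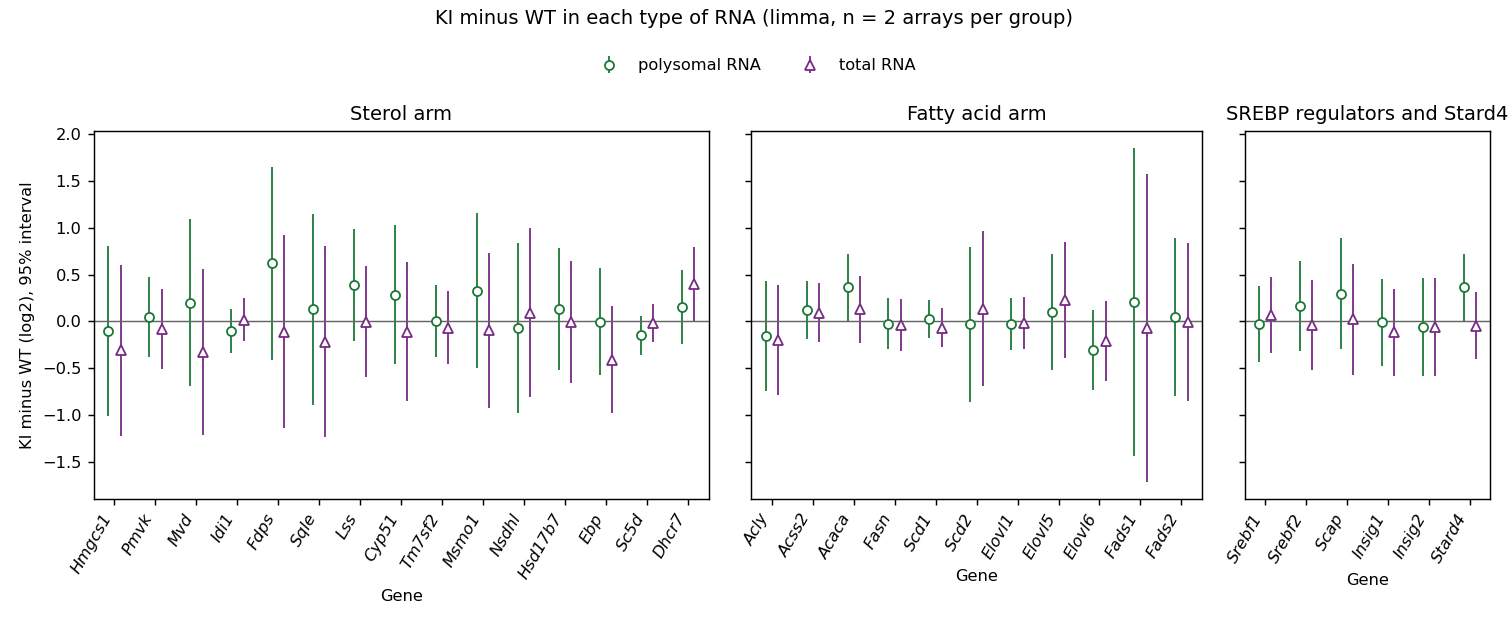
KI minus WT for the 32 genes in polysomal RNA (green circles) and total RNA (purple triangles), as log2 differences with 95% intervals from limma (n = 2 arrays per group). All intervals cross 0 except those of Acaca and Stard4 in polysomal RNA and of Dhcr7 in total RNA; the widest is that of Fads1, which reaches from -1.43 to 1.86 in polysomal RNA.

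The intervals give what these arrays could show. In polysomal RNA 25 of the 32 KI minus WT intervals lay wholly within 1 log2 unit of 0, and in total RNA 26 did. A difference in signal of that size or more was outside the 95% interval for those genes. They include Fasn, at the bottom on all 8 arrays, Idi1 and Sc5d, there on 7, and Tm7sf2, there on 6. For such genes differences are understated, and a narrow interval does not bound the difference in RNA. The median half-width was 0.55 in each type of RNA, and the highest was 1.64, for Fads1. The lowest half-width was 0.204 in each type of RNA. With 2 arrays per group, a difference smaller than the half-width of its own gene could not be told from 0.

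The polysomal loading difference asks whether the polysomal minus total difference was larger in KI than in WT. It passed for 0 of the 32 genes and for 0 of all tested genes in limma (0% of 8832), and 0 of the 32 and 199 of all tested genes (2.25%) had an unadjusted p under 0.05. Stard4 had the smallest p, with 0.41 (95% interval -0.10 to 0.92), from culture differences of 2.32 and 1.96 in KI, against 1.67 and 1.79 in WT. Acaca had 0.23 (-0.27 to 0.74), from 1.57 and 1.70 in KI, against 1.11 and 1.70 in WT. The cultures of Stard4 did not overlap between the lines, and those of Acaca did.

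In the sterol arm, Fdps had a loading difference of 0.73 (-0.72 to 2.19), Lss 0.39 (-0.45 to 1.24) and Ebp 0.41 (-0.40 to 1.21). For Fdps the polysomal minus total values were -0.22 and -0.34 in the KI cultures, against -0.42 and -1.60 in the WT cultures. In the fatty acid arm Scd1 had 0.09 (-0.20 to 0.38), Scd2 -0.17 (-1.34 to 1.00), Elovl1 -0.01 (-0.41 to 0.38), Elovl5 -0.12 (-1.001 to 0.753), Elovl6 -0.10 (-0.70 to 0.51), Fads1 0.28 (-2.05 to 2.60) and Fads2 0.05 (-1.14 to 1.24). Among the regulators Scap had 0.28 (-0.56 to 1.11), Srebf2 0.21 (-0.47 to 0.88), Srebf1 -0.10 (-0.67 to 0.48), Insig1 0.11 (-0.54 to 0.76) and Insig2 0.00 (-0.74 to 0.74). The median was 0.21 for the sterol arm and 0.03 for the fatty acid arm, against 0.03 over all tested genes. Only 17 of the 32 intervals of this unblocked fit lay within 1 log2 unit of 0. A larger difference lay inside the interval for the other 15, Scd2 and Fads2 among them. The unblocked fit does not use the pairing of arrays within a culture. For Scd2 the culture differences were 0.175 and 0.221 in KI, against 0.339 and 0.394 in WT, without overlap. With the culture as a fixed block the loading difference again passed for 0 of all tested genes. Groups did not overlap for 8 of 32 genes (25.0%, against 28.7% of all tested genes), 5 of them higher in KI and 3 lower.

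Replicates of a group differed by arm. In polysomal RNA replicate 1 was the higher array for 11 of 15 sterol enzymes in each line, with a median gap of 0.34 in KI and 0.27 in WT, against 50.1% of all tested genes in KI and 51.4% in WT. In WT total RNA replicate 1 was the higher array for 11 of 11 fatty acid enzymes, with a median gap of 0.35, against 51.6% of all tested genes, and in KI total RNA for 6 of 11. The widest gap in polysomal RNA was 0.997, for Hmgcs1 in KI, and the widest in total RNA was 1.83, for Fads1 in KI. These gaps stand inside every standard error given above. Arrays of 1 line with the same number were read as sharing a culture, and the source of the gaps was not tested.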

How the data were processed

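Heavy polysomal and total cytoplasmic RNA (250 ng per sample) was biotin-labelled in a single round and measured on 8 bead arrays, 2 per group, per the labels' protocols. The authors deposited 1 processed value per probe and array, taken here as log2 signal, since the values ran from 7.48 to 15.80. The submitters' processing notes name lumi. For its version, transform, background correction and normalization, and for the log base, the sources used here give nothing, and values stabilised by lumi for variance would also lie in this range. A log2 difference holds only on a log2 scale. A second deposited table has 8 columns under names that match no label; it equals the labelled arrays within 1e-06 and was not used.

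One symbol was annotated to 23978 of 25697 probes, several to 0 and none to 1719; 23962 were matched by gene ID to RefSeq (GRCm38.p6). The filter kept the 12848 probes with an 8-array mean above the median of such means (7.73), of which 12094 were named, and the brightest probe stood for each of 8832 tested genes. In limma 3.58.1 (R 4.3.3), lmFit and eBayes estimated the 4 group means from all 8 arrays, unblocked (4 residual and 1.8 prior degrees of freedom). Two-sided p-values were adjusted over all tested genes (Benjamini-Hochberg), with 0.05 as the threshold. The code of the fit was run on simulated arrays with independent errors and no shared cultures. That run cannot show how the fit treats arrays that share a culture. Tables were made with Python 3.11.15 and pandas 2.3.3. Precision is limited by there being 8 arrays.

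A source name common to total and polysomal RNA of 1 line and number was read as a shared culture; the deviations of such arrays from their group means correlated across genes at 0.576 for KI and 0.051 for WT. Between the lines only the number is shared (0.389 in total RNA, 0.237 in polysomal RNA). The text gives a culture block, fixed unless called random, where it changed a call.

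The genes and lists, tests and settings were chosen with earlier results of these data known. Every gene of the set is accounted for. Values are given in full for genes that passed or differed by 1 or more, otherwise for the 3 genes of each arm with the smallest p, and always for paralogues; other lists could name up to 3 genes per comparison by smallest p. Settings tried were the filter, the choice of probe, quantile normalization, centring, an intensity trend with a robust fit, blocks for replicate and culture, and leaving out each array.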

Additional observations from a re-analysis of the deposited data

How the results depend on the processing

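Of the 32 genes, 0 passed in KI against WT in polysomal RNA, in total RNA or in the polysomal loading difference in limma under every setting run, with 2, 1 and 0 at an unadjusted p under 0.05 in the fit reported. In polysomal against total RNA, the count of genes passing was 13 in KI and 15 in WT. The settings other than leaving out an array gave 9 to 16 in KI and 9 to 18 in WT. Over all genes tested in those settings 16.7% to 45.1% passed in KI and 16.3% to 46.7% in WT. The WT count of 9 came with no filter on dim probes, where 16593 genes were tested and 8 of the 9 were among the 15. Leaving out each array in turn gave 4 to 14 in KI and 3 to 14 in WT; a group of 1 array takes its spread from the others. With the replicate number as a block 16 passed in KI, beside 41.8% of all tested genes, and 17 in WT, beside 42.9%. Srebf2 was then lost in KI (limma adjusted p = 0.0505), and Scd2 and Fads2 passed in WT (0.0430 and 0.0302). Pmvk, Fads1, Fads2 and Scap passed in KI in the same limma fit (adjusted p = 0.0489, 0.0368, 0.0428 and 0.0195). KI and WT share only the number. With the culture as a fixed block 14 passed in KI, beside 40.0% of all tested genes, and 14 in WT, beside 40.8%. The changed calls are given in the report, and this fit gives no value for KI against WT. With a random culture block (correlation 0.198) 13 passed in KI, beside 43.3% of all tested genes, and 17 in WT, beside 44.4%. Mvd and Sc5d were gained in WT there (limma adjusted p = 0.0400 and 0.0361). Arm medians for polysomal against total RNA moved under the stricter filter, to -0.058 for the sterol arm in WT, 0.598 for the fatty acid arm in WT and 0.593 for it in KI, and to 0.123 for the fatty acid arm in KI with every probe fitted, where Elovl1 counts 4 times. Without 1 array the medians lay between 0.127 and 0.244 (sterol, KI), 0.038 and 0.273 (sterol, WT), 0.388 and 0.538 (fatty acid, KI) and 0.234 and 0.597 (fatty acid, WT). Elovl1 in KI reversed to -0.364 with its probes averaged (limma adjusted p = 0.0438). Quantile normalization and centring on the tested genes moved the median of all genes by less than 0.1 and changed the direction of 0 named genes past the threshold, but both lost Idi1 in WT (0.0751 and 0.0569), and quantile normalization lost Cyp51 in WT (0.0548) and gained Srebf1 in KI (0.0396). Sc5d in WT was gained also with no filter (0.0294), with probes averaged (0.0452), with every probe fitted (0.0490) and with an intensity trend and robust fit (0.00592). Genes at the bottom of the range, such as Fasn, Idi1, Sc5d and Tm7sf2, are limited by signal over background.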
